A study of Mus musculus with 8 samples.

Results

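Livers of mice with a liver-specific deletion of Med23 (LMKO) were compared with livers of control mice after re-feeding. The comparison covered each annotated locus that reached 1 FPKM in 2 or more of the 4 re-fed libraries, which held for 10374 of 23699 loci. FPKM counts sequenced fragments relative to transcript length and to the mapped fragments of the library. Of these loci, 9680 had at least 1 FPKM in all 4 libraries, 102 passed through the 2 control libraries only and 49 through the 2 LMKO libraries only, so that loci of the last 2 kinds had to differ to some degree. All mice were male, of strain C57/BL6 and 8 weeks old, and polyadenylated RNA was taken from liver. Food was withheld from both groups for 24 h and returned for the next 24 h, with 2 mice each. The controls are labelled only as control, and the sources used here give no promoter or Cre line for the deletion. A fasted pair of groups, sampled at the end of the 24 h fast, entered the same statistical model and served to show where re-fed values differed.

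Med23 encodes a subunit of the tail of Mediator, a large complex through which DNA-bound transcription factors reach the RNA polymerase II machinery at promoters. In hepatocytes, feeding after a fast raises insulin, which turns down glucose production and turns up the storage of glucose as glycogen and fat, and a large share of this control is exerted on transcription. The liver is also the source of secreted proteins such as the major urinary proteins, small carriers of pheromones that male mice excrete in large amounts and that depend on pulses of growth hormone.

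The 4 libraries correlated across genes at 0.965 to 0.976 on the log2(FPKM + 1) scale, and their FPKM summed to between 511926 and 597650. Control replicate 1 stood apart in its relation to transcript length: within the 4 libraries, the correlation of a library's deviation with the log2 length of the gene's longest annotated transcript was 0.362 in control replicate 1, -0.0793 in control replicate 2 and -0.194 and -0.131 in LMKO. LMKO replicate 1 stood apart in clock genes, described further on. Hepatocyte markers were high throughout. Ttr, which encodes the thyroid hormone carrier transthyretin, had 3659 and 5490.1 FPKM in the controls and 8622 and 7086 FPKM in LMKO, and Apoa1, the main protein of high-density lipoprotein, had 4929 and 6653 FPKM in the controls and 5499 and 4586 FPKM in LMKO. Every library listed Alb, which encodes albumin, at 0, which can be a failed estimate. Markers of T cells and B cells did not pass the filter, with 0 genes tested of either list.

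Med23 itself had 2.86 and 2.33 FPKM in the controls and 1.61 and 1.74 FPKM in LMKO. Both LMKO libraries lay below both controls, with a ratio of the means of 0.647, but the difference did not pass the threshold (log2 fold change -0.42, standard error 0.12, limma adjusted p 0.296; unadjusted p 0.00872). Med23 lies at chr10:24589792-24633335 on build mm9, which all positions of deposited loci below use. Liver also holds cells other than hepatocytes, and fewer cells of a type and less RNA per cell cannot be told apart in these values.

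A gene was called where limma gave an adjusted p under 0.05 over the 10374 loci. The call was made for 11 loci, 0.106% of those tested, of which 3 were higher (0.0289%) and 8 lower (0.0771%) in LMKO. Of these, 4 were loci under 200 bases that hold a microRNA or a small nucleolar RNA. Mir5123, Mir215 and Snora2b were listed at 0 in both controls, and Mir1898 at 0 in both LMKO libraries. Among the 2 re-fed libraries above 0, their FPKM stood in the ratio of the FPKM that 1 fragment gives in each library. For Snora2b it was 0.5 times that ratio, the spacing that whole fragments give. These 4 are not read as differences between the groups, and they get no fold change. All 7 longer called genes fell in LMKO, 6 of them major urinary protein genes. No gene of 200 bases or more rose by this call. At an adjusted p under 0.1 there were 22 loci (0.212%), 5 higher (0.0482%) and 17 lower (0.164%). At an unadjusted p under 0.05, 771 loci (7.43%) were higher and 483 (4.66%) lower. In 2747 loci (26.5%) both LMKO libraries lay above both controls, and in 1936 (18.7%) both lay below. The median log2 fold change over all loci was 0.01.

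**Figure D1:**
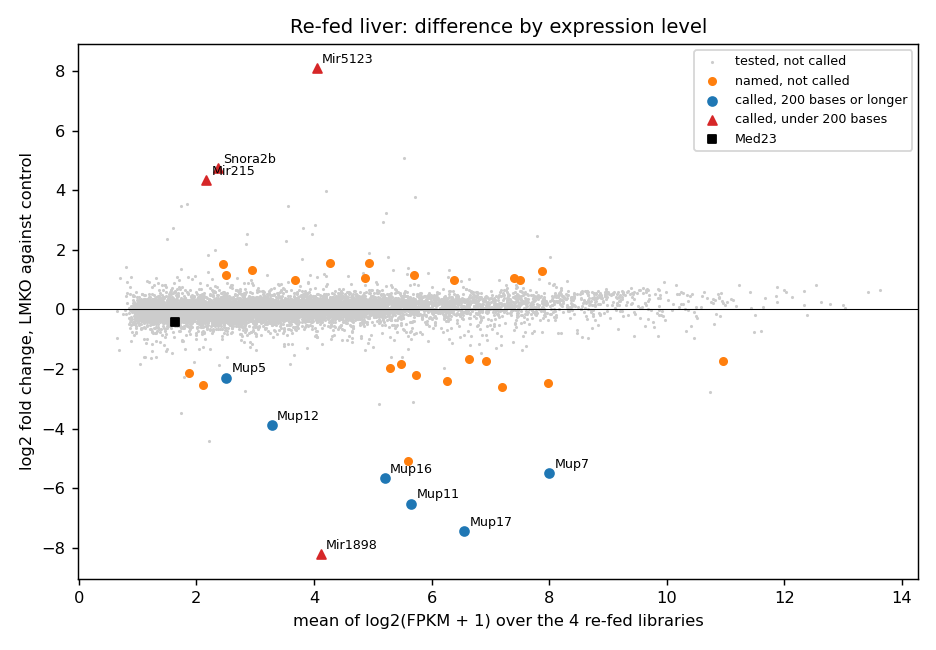
Points are the loci tested, 1 called locus left out, each with its mean log2(FPKM + 1) over the 4 re-fed libraries on the x axis and its log2 fold change, LMKO against control, on the y axis. The called genes of 200 bases or more lie below 0, from -2.29 for Mup5 to -7.44 for Mup17, and the triangles mark the 4 short loci.

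The major urinary protein (Mup) genes held 6 of the 7 longer called genes, and all 6 fell. They lie as a cluster of near-identical copies on chromosome 4, so that reads are shared among them and the value of a single copy is uncertain. Mup17 (chr4:61252963-61256864) had 1329 and 1149.9 FPKM in the controls and 5.96 and 6.34 FPKM in LMKO, with no overlap between the groups and a fall of 202-fold between the means (log2 fold change -7.44, standard error 0.58, limma adjusted p 0.00661). Mup11 (chr4:60671339-60675267) had 429.6 and 538 FPKM in the controls and 3.94 and 4.63 FPKM in LMKO, 113-fold lower (log2 fold change -6.51, standard error 0.44, limma adjusted p 0.00303). The copy with the highest level among those called, Mup7 (chr4:60079341-60083347), had 1600.1 and 1842 FPKM in the controls and 27.4 and 50.5 FPKM in LMKO, a fall of 44.1-fold (log2 fold change -5.49, standard error 0.29, limma adjusted p 0.000778). In each of these 3 the LMKO livers had a small part of the control level, with both libraries of a group close together compared with the gap. Mup16 (chr4:61176625-61180518) had 239 and 286 FPKM in the controls and 3.61 and 4.76 FPKM in LMKO, 62.7-fold lower (log2 fold change -5.67, standard error 0.28, limma adjusted p 0.000606). The less abundant Mup12 (chr4:60732254-60736153) had 26.8 and 48.7 FPKM in the controls and 1.61 and 1.46 FPKM in LMKO, a fall of 24.6-fold (log2 fold change -3.88, standard error 0.31, limma adjusted p 0.00712). Mup5 (chr4:61492353-61496214) had 10.2 and 13.00 FPKM in the controls and 2.07 and 1.14 FPKM in LMKO, which was 7.22-fold lower (log2 fold change -2.29, standard error 0.23, limma adjusted p 0.0215). Mup7 and Mup16 remained called when any 1 of the 4 re-fed libraries was left out. The other 4 each missed the threshold in at least 1 of these fits, with the same direction. Mup11 missed it without control replicate 2 (log2 fold change -6.35) and Mup12 without LMKO replicate 1 (-3.92) or 2 (-3.83). Mup17 missed it without any 1 of the 4 (-7.33 to -7.54), and Mup5 without LMKO replicate 2 (-2.03) or without control replicate 1 (-2.45) or 2 (-2.13). Mup5 also missed it with a pseudocount of 0.1, no filter on low values, quantile normalization, a replicate block, or only the 4 re-fed libraries.

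Not every member of the family was equally low. Of 20 listed members found in the files, 15 passed the filter; 14 had lower values in LMKO at an unadjusted p under 0.05, without overlap between the groups, and 1 had higher values. The median log2 fold change was -2.55, and these values, the same that gave the calls, have no further test. Mup14 had 266 and 299 FPKM in the controls and 5.62 and 9.28 FPKM in LMKO and lay just outside the threshold (log2 fold change -5.10, limma adjusted p 0.0570). Mup1 had 306 and 427 FPKM in the controls and 71.4 and 48.9 FPKM in LMKO (log2 fold change -2.59, limma adjusted p 0.212). Mup9 had 156 and 199 FPKM in the controls and 26.97 and 38.8 FPKM in LMKO (log2 fold change -2.41, limma adjusted p 0.0943). Mup13 had 9.70 and 9.23 FPKM in the controls and 1.28 and 0.398 FPKM in LMKO (log2 fold change -2.55, limma adjusted p 0.0923). Mup21 had 128 and 162 FPKM in the controls and 56.1 and 23.5 FPKM in LMKO (log2 fold change -1.96, limma adjusted p 0.336). In these 5 both LMKO libraries lay well below both controls, although the ratio between the LMKO libraries was larger in Mup13 and Mup21 than in Mup9. Mup8, near the filter, had 3.81 and 2.19 FPKM in the controls and 0.0376 and 0.145 FPKM in LMKO (log2 fold change -1.84, limma adjusted p 0.274). Mup10 and Mup3, the copies with the highest control FPKM, differed much less: Mup10 had 3711 and 3709.8 FPKM in the controls and 2237 and 2183 FPKM in LMKO (log2 fold change -0.75, limma adjusted p 0.359). Mup3 had 3013 and 5321 FPKM in the controls and 2906 and 1987 FPKM in LMKO (log2 fold change -0.74, limma adjusted p 0.402). Mup20, which encodes the male pheromone darcin, was the exception, with 1641 and 1278 FPKM in the controls and 1819.9 and 1927 FPKM in LMKO (log2 fold change 0.37, limma adjusted p 0.672). Summed over the family, Mup FPKM came to 12871 and 15286 FPKM in the controls and 7169 and 6289 FPKM in LMKO, or 2.51% and 2.77% of all FPKM in the controls and 1.20% and 1.08% in LMKO. The total was lower in both LMKO libraries. Mup10, Mup3 and Mup20 made up most of it in the controls and nearly all of it in LMKO. Mup4 and Mup6 did not reach the filter, and Mup2, Mup15 and Mup19 were listed at 0 in all 4 re-fed libraries, which can be a failed estimate among near-identical copies.

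**Figure D2:**
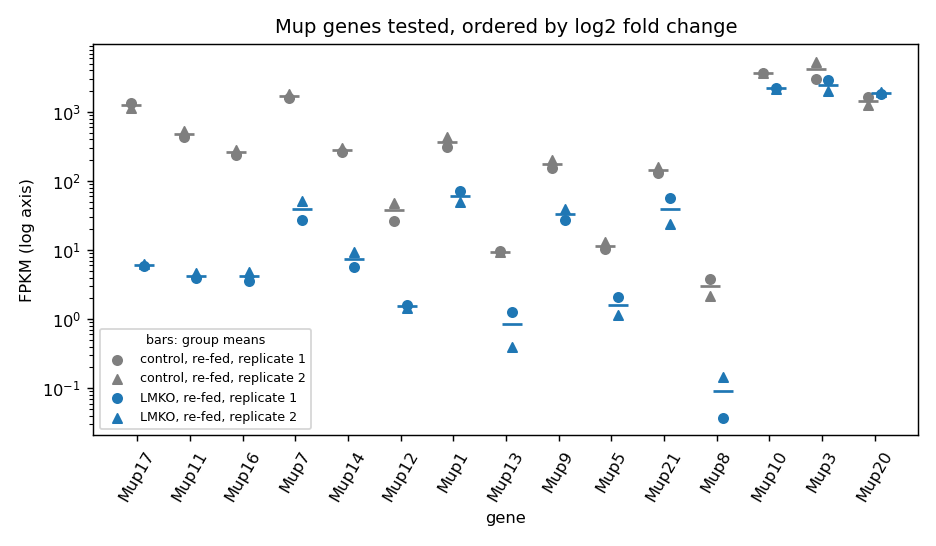
Each symbol is the FPKM, on a log axis, of 1 of the 15 Mup genes tested in 1 re-fed library, with bars at the group means and genes ordered by log2 fold change. The gap between control and LMKO narrows from Mup17 at the left to Mup3, and Mup20 at the right has LMKO above control.

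RefSeq promoter windows (build GRCm38.p6, 250 bases before to 50 after an annotated start) were found for Mup7, Mup11 and Mup17 among the called Mup genes, and not for Mup16, Mup12 and Mup5. They are shown here for 3 members whose values differed to very unequal degrees. The window of Mup11 is chr4:60662346-60662645, that of Mup10 chr4:60582106-60582405 and that of Mup3 chr4:62087268-62087567, all on the minus strand and printed 5′ to 3′. Capitals mark the letters TATATAA on either strand, with overlapping matches joined.
Mup11: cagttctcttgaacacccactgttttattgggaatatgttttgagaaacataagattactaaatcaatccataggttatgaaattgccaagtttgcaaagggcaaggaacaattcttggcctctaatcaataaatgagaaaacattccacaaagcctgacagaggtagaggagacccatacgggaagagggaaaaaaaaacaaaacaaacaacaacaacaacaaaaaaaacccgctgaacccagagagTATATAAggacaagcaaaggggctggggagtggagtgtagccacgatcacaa
Mup10: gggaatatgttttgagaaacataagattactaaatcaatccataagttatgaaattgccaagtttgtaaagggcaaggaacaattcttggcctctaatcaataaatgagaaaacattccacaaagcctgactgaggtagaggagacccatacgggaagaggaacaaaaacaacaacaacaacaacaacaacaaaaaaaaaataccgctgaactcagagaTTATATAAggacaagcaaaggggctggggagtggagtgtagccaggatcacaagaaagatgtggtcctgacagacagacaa
Mup3: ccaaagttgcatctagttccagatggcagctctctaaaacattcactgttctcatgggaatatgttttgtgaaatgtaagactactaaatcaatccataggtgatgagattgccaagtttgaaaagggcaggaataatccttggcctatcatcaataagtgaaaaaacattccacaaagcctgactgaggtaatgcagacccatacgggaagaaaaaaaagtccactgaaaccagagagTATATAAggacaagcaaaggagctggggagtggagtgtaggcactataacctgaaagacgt
The windows of Mup11 and Mup10, whose log2 fold changes were -6.51 and -0.75, were 94.8% identical over the 271 bases aligned. Mup11 and Mup17, with log2 fold changes of -6.51 and -7.44, shared 99.6% over 276 bases, and Mup11 and Mup3 shared 86.8% over 265 bases. Identity with Mup11 was also 98.9% for Mup9, 98.5% for Mup7, 97.5% for Mup14 and 85.1% for Mup21. Their log2 fold changes were -2.41, -5.49, -5.10 and -1.96. Mup10, Mup3 and Mup21, with smaller falls, were thus the least like Mup11, while Mup9 was alike despite its smaller fall. Whether identity goes with fold change was not tested. TATATAA was searched for after the windows had been seen, and 3.24% of the 32851 windows of the table hold it. Counted from the annotated start, the marked letters began at -2 in Mup11, -31 in Mup10 and -11 in Mup3. The annotated starts of these copies are thus not at matching positions. None of 5 other motifs was found in the windows of Mup7, Mup11, Mup17, Mup14, Mup9, Mup10, Mup3 or Mup21: TTCNNNGAA, the element bound by STAT proteins (8.3% of all windows), TATAAA, the common TATA box (13.6%), TGTTTAC, the forkhead core (3.65%), CAAAGTCCA, an HNF4 element (0.475%), and TTGCNNAA, a C/EBP core (10.8%), each on both strands. That these letters are not in these windows says nothing about the factors, nor about a TATA box of other letters.

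Genes of retinoid transport and metabolism had values in both directions. Of the 14 tested, 4 were lower and 1 higher at an unadjusted p under 0.05, and the median log2 fold change was -0.41 (-0.63 without LMKO replicate 2 and -0.17 without LMKO replicate 1). Cyp26a1, the hydroxylase that clears retinoic acid and is itself induced by it, had 84.6 and 68.4 FPKM in the controls and 18.1 and 19.6 FPKM in LMKO, with no overlap (log2 fold change -1.96, standard error 0.41, limma adjusted p 0.224). Rbp4, which carries retinol in plasma, had 3428 and 3421 FPKM in the controls and 5227 and 5061 FPKM in LMKO, higher in both LMKO libraries (log2 fold change 0.59, limma adjusted p 0.224). Lrat, the enzyme that esterifies retinol, had 3.26 and 2.88 FPKM in the controls and 1.62 and 1.84 FPKM in LMKO (log2 fold change -0.57, limma adjusted p 0.349). None of these 3 passed the threshold.

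Among genes that were not called, the largest differences without overlap, at an unadjusted p under 0.01 and a mean of at least 5 FPKM in the higher group, were taken as values that did not pass. On the lower side, beside Mup14, Mup13, Mup1, Mup9 and Cyp26a1, stood BC089597, with 104 and 123 FPKM in the controls and 24.1 and 23.6 FPKM in LMKO (log2 fold change -2.20, limma adjusted p 0.0783). Raet1b, of a set of near-identical genes for ligands of the NKG2D receptor, with 6.33 and 7.09 FPKM in the controls and 0.378 and 1.25 FPKM in LMKO (log2 fold change -2.13, limma adjusted p 0.0866). Selenbp2, a selenium-binding protein gene with a close copy, had 653 and 533 FPKM in the controls and 117 and 96.4 FPKM in LMKO (log2 fold change -2.46, limma adjusted p 0.256). Car3, a carbonic anhydrase abundant in liver, had 3859 and 3426 FPKM in the controls and 1131 and 1059 FPKM in LMKO (log2 fold change -1.73, limma adjusted p 0.268), the largest difference in FPKM among these genes outside the Mup family. Pigr, the receptor that carries immunoglobulin A into bile, had 175 and 284 FPKM in the controls and 87.1 and 49.5 FPKM in LMKO (log2 fold change -1.74, limma adjusted p 0.224). Aox3, an aldehyde oxidase, had 203 and 153 FPKM in the controls and 63.8 and 47.2 FPKM in LMKO (log2 fold change -1.67, limma adjusted p 0.224). Ces1g, a carboxylesterase, had 65.02 and 105 FPKM in the controls and 22.4 and 23.1 FPKM in LMKO (log2 fold change -1.82, limma adjusted p 0.250). In all of these both LMKO libraries lay below both controls. With only the 4 re-fed libraries in the fit, BC089597 (limma adjusted p 0.0178), Selenbp2 (0.0267), Car3 (0.0350), Cyp26a1 (0.0385) and Mup14 (0.00608) passed the threshold. Other genes passed in that fit as well. Among them were AA465934, lower in LMKO (log2 fold change -2.75, limma adjusted p 0.00608), and 2 that were higher. These were Ctse (log2 fold change 2.74, limma adjusted p 0.0385) and Gm6682 (log2 fold change 1.43, limma adjusted p 0.0445).

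On the higher side the 12 genes taken had log2 fold changes between 0.97 and 1.56. Krt18, a keratin of the hepatocyte cytoskeleton, had 137 and 166 FPKM in the controls and 314 and 429.7 FPKM in LMKO (log2 fold change 1.28, limma adjusted p 0.195). Amy1, an amylase gene, had 134 and 122 FPKM in the controls and 239.8 and 274 FPKM in LMKO (log2 fold change 0.9999, limma adjusted p 0.130). Ang, which encodes the secreted ribonuclease angiogenin, had 94.7 and 144 FPKM in the controls and 242 and 242 FPKM in LMKO (log2 fold change 1.05, limma adjusted p 0.216). Rcan1, an inhibitor of the phosphatase calcineurin, had 20.8 and 13.7 FPKM in the controls and 43.4 and 61.01 FPKM in LMKO (log2 fold change 1.55, limma adjusted p 0.194). These 4 were separated between the groups in all libraries. Acnat2, an acyltransferase gene, had 12.5 and 8.47 FPKM in the controls and 37.7 and 27.6 FPKM in LMKO (log2 fold change 1.56, limma adjusted p 0.224). Cyp2a22 had 2.49 and 1.93 FPKM in the controls and 6.03 and 11.2 FPKM in LMKO (log2 fold change 1.54, limma adjusted p 0.161). Lad1 had 4.53 and 3.34 FPKM in the controls and 8.45 and 14.5 FPKM in LMKO (log2 fold change 1.31, limma adjusted p 0.250). Egln3, a prolyl hydroxylase that acts on hypoxia-inducible factors, had 7.41 and 9.02 FPKM in the controls and 16.6 and 17.4 FPKM in LMKO (log2 fold change 0.97, limma adjusted p 0.224). Xdh, the xanthine-oxidizing enzyme, had 25.5 and 14.5 FPKM in the controls and 37.4 and 45.7 FPKM in LMKO (log2 fold change 1.06, limma adjusted p 0.282). Serpina11 had 66.6 and 50.2 FPKM in the controls and 120.03 and 113 FPKM in LMKO (log2 fold change 1.0009, limma adjusted p 0.296). Creld2 and Jun, the remaining pair, are described with their lists. Just outside the threshold with Mup14 lay Raet1d, with 1.31 and 1.90 FPKM in the controls and values close to 0 in LMKO (log2 fold change -1.37, limma adjusted p 0.0567). Gm6682, with 0.0533 and 0.0576 FPKM in the controls and 1.73 and 1.98 FPKM in LMKO (log2 fold change 1.43, limma adjusted p 0.0698).

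Each gene list below was described by its counts and its median log2 fold change, beside 7.43% of all loci higher and 4.66% lower at an unadjusted p under 0.05 and a median of 0.01. Counts without overlap stand beside 26.5% of all loci higher and 18.7% lower without overlap. No gene named below as a member of these lists was called by limma at an adjusted p under 0.05. Counts and medians depend on single libraries. Where leaving out 1 re-fed library turned the sign of a median or moved it by over 1.5 times, the lowest and highest such medians follow it in parentheses. In 35 of 40 lists a count moved by over 1.5 times without 1 of the re-fed libraries. Over all loci the count higher was 374 without LMKO replicate 2 and 790 without control replicate 2, and the count lower was 304 without LMKO replicate 1 and 828 without control replicate 2.

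**Figure D3:**
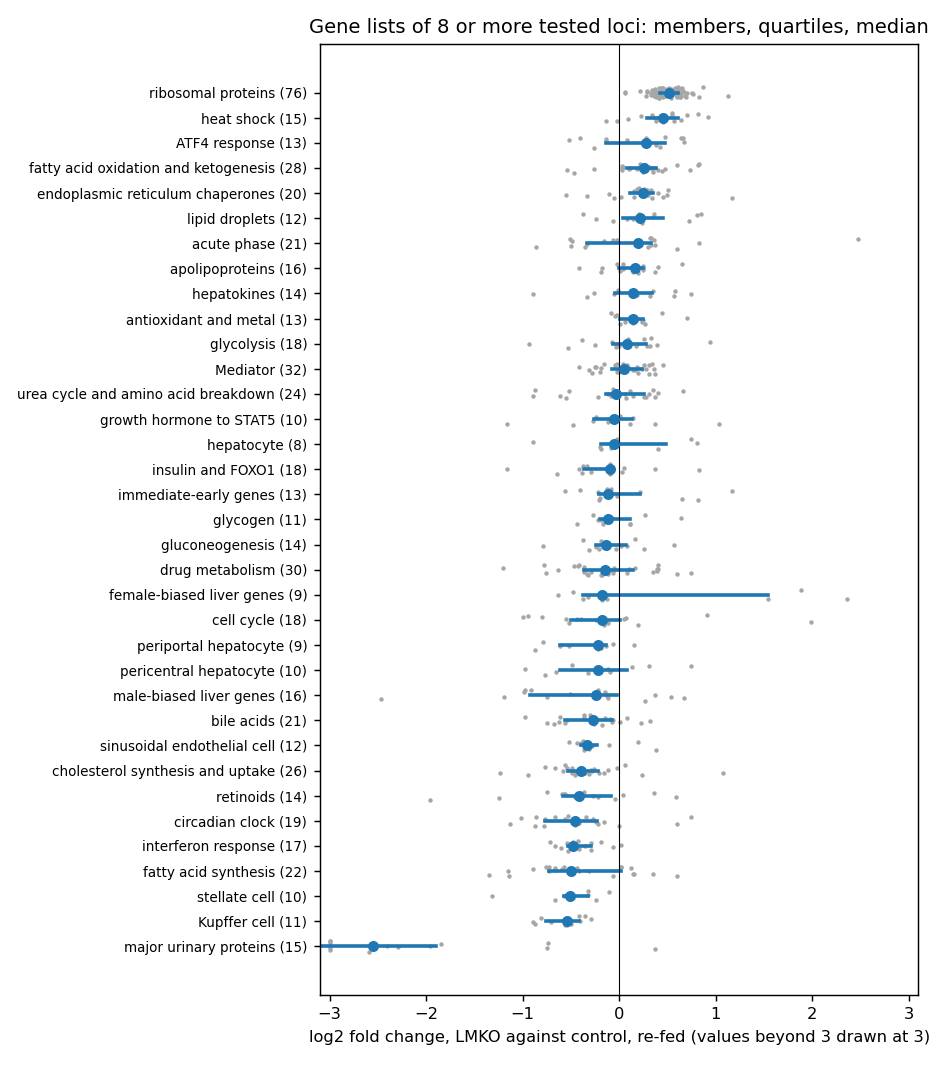
Gray points are the log2 fold changes (LMKO against control, re-fed) of the members of each list with 8 or more tested loci, blue dots the medians and blue lines the middle 50% of members. The ribosomal protein list has its members packed above 0, with a median of 0.52, and the Mup list reaches farthest below 0.

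Genes for the proteins of the ribosome had higher values in LMKO. All 76 tested had a log2 fold change above 0, 73 without overlap between the groups, and 69 were higher at an unadjusted p under 0.05, but none passed the adjusted threshold. The median log2 fold change was 0.52, and members ran from 0.06 for Rps27 and Rpl34 to 1.13 for Rpl26. Rpl38, of the large subunit, had 797 and 919.7 FPKM in the controls and 1495 and 1544 FPKM in LMKO (log2 fold change 0.83, limma adjusted p 0.195). Rps12, of the small subunit, had 782 and 716 FPKM in the controls and 1185 and 1141 FPKM in LMKO (log2 fold change 0.63, limma adjusted p 0.195). Rps27a had 404 and 399.8 FPKM in the controls and 619.97 and 627 FPKM in LMKO (log2 fold change 0.63, limma adjusted p 0.216). Rpl39 had 725 and 718 FPKM in the controls and 1135 and 1200.3 FPKM in LMKO (log2 fold change 0.69, limma adjusted p 0.224). In each of these 4 genes both LMKO libraries lay above both controls, and the libraries of a group were close together. Summed over the list, FPKM came to 30369 and 29879 FPKM in the controls and 43599 and 43487 FPKM in LMKO, and the median difference was between 0.49 and 0.53 on the log2 scale in the 4 pairings of 1 LMKO with 1 control library. Without LMKO replicate 1 the count at an unadjusted p under 0.05 was 44, and without the other libraries in turn it lay between 47 and 63.

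These transcripts are short, and short transcripts in general had higher values in LMKO. Over the 10267 loci with an annotated transcript length, the correlation of log2 fold change with log2 length was -0.243 across genes, which are not independent replicates. With the loci split into 5 equal groups by length, the group with the shortest transcripts (81 to 1837 bases) had a median log2 fold change of 0.18, and the group with the longest had -0.12. Against control replicate 1 alone these medians were 0.25 and -0.22, and against control replicate 2 they were 0.12 and -0.01. Among loci of the shortest group other than ribosomal proteins, 16.7% were higher at an unadjusted p under 0.05, a share that depended on which controls were fitted. Their median log2 fold change was 0.17 (0.11 without control replicate 1 and 0.24 without control replicate 2). With quantile normalization the ribosomal protein median was 0.31 and the count 36. With the length trend removed from each library, the ribosomal protein median was 0.38 and the count 47 of 76, beside 7.61% of those other short loci. What length beyond this adds to the ribosomal protein values was not tested.

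**Figure D4:**
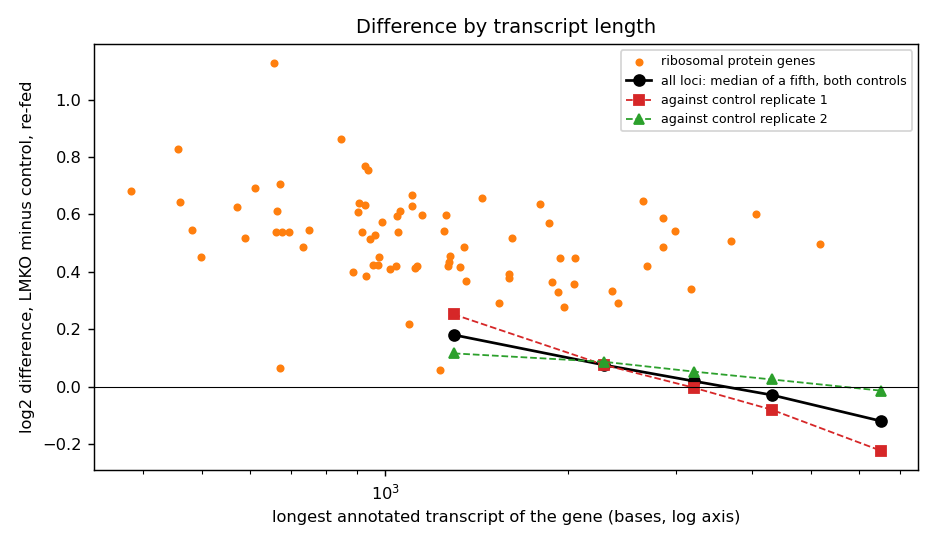
Orange points are the 76 ribosomal protein genes, by transcript length (log axis) and log2 difference, LMKO minus control; black circles are the medians of all loci in 5 equal groups by length, drawn at each group's median length, and dashed lines the same medians against each control replicate. The medians fall from the shortest to the longest group, more steeply against control replicate 1, and most ribosomal protein genes lie above them.

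Chaperone genes had mostly higher values. Of 15 heat shock genes, 13 had higher values, 10 without overlap, 6 were higher at an unadjusted p under 0.05 and 0 lower, and the median was 0.46 (0.28 without LMKO replicate 1 and 0.60 without LMKO replicate 2) (-0.14 in the fasted comparison). Hspa8, the constitutive chaperone of the cytosol, had 841 and 612 FPKM in the controls and 1427 and 1291 FPKM in LMKO (log2 fold change 0.92, limma adjusted p 0.224). Bag3, a partner of HSP70 proteins, had 16.2 and 17.1 FPKM in the controls and 28.3 and 27.00 FPKM in LMKO (log2 fold change 0.70, limma adjusted p 0.161). Hspe1, the mitochondrial co-chaperonin, had 221 and 252 FPKM in the controls and 358 and 335 FPKM in LMKO (log2 fold change 0.55, limma adjusted p 0.294). The inducible Hspa1b was high in LMKO replicate 1 only, with 3.92 and 3.19 FPKM in the controls and 14.02 and 3.25 FPKM in LMKO. The count of 6 was 3 without control replicate 2 or without LMKO replicate 1. In the endoplasmic reticulum list, 16 of 20 genes had higher values, 5 at an unadjusted p under 0.05 (1 without control replicate 2 or LMKO replicate 1, and 2 without control replicate 1), and the median was 0.25 (0.16 without LMKO replicate 1 and 0.33 without control replicate 1). Creld2, a target of the unfolded protein response, had 36.8 and 30.9 FPKM in the controls and 92.5 and 64.1 FPKM in LMKO (log2 fold change 1.17, limma adjusted p 0.224). Hspa5, the central chaperone of that compartment, had 433 and 397 FPKM in the controls and 654 and 527 FPKM in LMKO (log2 fold change 0.50, limma adjusted p 0.309).

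Targets and factors of the related ATF4 response had a median of 0.28 (0.15 without control replicate 1 and 0.37 without LMKO replicate 1) over 13 genes, with 3 higher and 1 lower at an unadjusted p under 0.05. Ddit3, a stress-induced transcription factor, had 9.62 and 12.6 FPKM in the controls and 18.0045 and 18.3 FPKM in LMKO (log2 fold change 0.67, limma adjusted p 0.296). Atf4 had 42.5 and 55.7 FPKM in the controls and 68.5 and 62.4 FPKM in LMKO (log2 fold change 0.42, limma adjusted p 0.371). Asns, the asparagine synthetase, differed most within a group, with 6.28 and 9.91 FPKM in the controls and 1.67 and 23.6 FPKM in LMKO. Of 13 immediate-early genes, 2 were higher and 1 lower, and the median was -0.11 (-0.19 without LMKO replicate 1 and -0.002 without control replicate 2). Jun, part of the AP-1 factor, had 2.81 and 2.74 FPKM in the controls and 8.05 and 6.95 FPKM in LMKO (log2 fold change 1.17, limma adjusted p 0.296). Atf3 had 0.821 and 0.832 FPKM in the controls and 1.80 and 2.70 FPKM in LMKO (log2 fold change 0.82, limma adjusted p 0.195). Junb, of the same family as Jun, lay the other way, with 3.22 and 5.47 FPKM in the controls and 2.29 and 2.79 FPKM in LMKO (log2 fold change -0.57, limma adjusted p 0.381).

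Genes of glucose production had lower values at some steps and higher values at others. Pck1, the enzyme that commits oxaloacetate to glucose and is silenced by insulin, had 352 and 396 FPKM in the controls and 206 and 225 FPKM in LMKO, with no overlap (log2 fold change -0.79, standard error 0.13, limma adjusted p 0.157). Fbp1, which acts later in the same route, had 679 and 639 FPKM in the controls and 984 and 970.02 FPKM in LMKO (log2 fold change 0.57, limma adjusted p 0.224). G6pc, the last enzyme, differed widely within LMKO, with 111 and 82.7 FPKM in the controls and 194 and 53.4 FPKM in LMKO (log2 fold change 0.09, limma adjusted p 0.964). Klf15, a regulator of the pathway, had 57.99 and 58.5 FPKM in the controls and 43.9 and 45.6 FPKM in LMKO (log2 fold change -0.37, limma adjusted p 0.344). Over the 14 gluconeogenesis genes the median was -0.13 (-0.18 without LMKO replicate 1 and -0.045 without control replicate 1), with 1 higher and 2 lower at an unadjusted p under 0.05. Neither Pck1 nor Fbp1 passed the adjusted threshold.

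Genes of insulin signalling and targets of FOXO1, the factor that insulin excludes from the nucleus, had a median of -0.10 (-0.16 without LMKO replicate 2 and -0.12 without control replicate 1) over 18 genes, 0 higher and 2 lower. Insr, the insulin receptor, had 12.98 and 9.75 FPKM in the controls and 9.98 and 10.97 FPKM in LMKO (log2 fold change -0.10, limma adjusted p 0.890). Foxo3 had 6.82 and 3.39 FPKM in the controls and 2.48 and 3.02 FPKM in LMKO (log2 fold change -0.65, limma adjusted p 0.404). Foxo1 had 8.15 and 4.87 FPKM in the controls and 5.04 and 4.94 FPKM in LMKO (log2 fold change -0.29, limma adjusted p 0.589). In both, control replicate 1 was the highest library and control replicate 2 lay near the LMKO values. Pdk4 and Igfbp1, classical targets of FOXO1, were low in this fed state, at 0.988 and 1.14 against 1.48 and 4.42 FPKM and 0.991 and 1.65 against 1.25 and 0.471 FPKM (controls, then LMKO).

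Of 18 genes of glucose entry and glycolysis, 0 were higher and 2 lower at an unadjusted p under 0.05, and the median was 0.08 (-0.056 without control replicate 2 and 0.24 without control replicate 1). Slc2a2, the glucose carrier of the hepatocyte membrane, had 144 and 104 FPKM in the controls and 51.01 and 79.3 FPKM in LMKO (log2 fold change -0.93, limma adjusted p 0.335). Pdk2, a kinase that holds back pyruvate dehydrogenase, had 49.3 and 47.2 FPKM in the controls and 30.9 and 35.4 FPKM in LMKO (log2 fold change -0.53, limma adjusted p 0.296). The 11 glycogen genes had a median of -0.12 (-0.22 without control replicate 2 and 0.12 without LMKO replicate 1) with 0 higher and 0 lower. In the list of urea cycle and amino acid catabolism genes, with 24 tested, 1 was higher and 5 were lower, with a median of -0.03 (-0.064 without LMKO replicate 2 and 0.022 without LMKO replicate 1). Cps1, the entry enzyme of the urea cycle, had 1494 and 1049 FPKM in the controls and 675 and 676 FPKM in LMKO (log2 fold change -0.89, limma adjusted p 0.274). Hal, which breaks down histidine, had 109.7 and 145 FPKM in the controls and 78.3 and 60.2 FPKM in LMKO (log2 fold change -0.87, limma adjusted p 0.287). Prodh and Prodh2, of proline and hydroxyproline breakdown, had opposite values, 100.4 and 96.4 against 64.8 and 62.8 FPKM and 107 and 130.4 against 195 and 181 FPKM (controls, then LMKO).

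Genes that build fatty acids mostly had lower values. Of 22, 15 had lower values, 8 without overlap, 3 were lower and 1 higher at an unadjusted p under 0.05, and the median was -0.50. Acss2, which makes acetyl-CoA from acetate, had 167 and 164 FPKM in the controls and 70.2 and 77.6 FPKM in LMKO, with the libraries of each group close together (log2 fold change -1.15, standard error 0.26, limma adjusted p 0.250). Fasn, the fatty acid synthase, had 171 and 83.2 FPKM in the controls and 51.2 and 56.1 FPKM in LMKO (log2 fold change -1.14, limma adjusted p 0.342). Acly, which makes acetyl-CoA from citrate, had 145 and 108 FPKM in the controls and 72.6 and 77.6 FPKM in LMKO (log2 fold change -0.72, limma adjusted p 0.432). In Fasn the 2 controls differed from each other by more than control replicate 2 differed from LMKO. G6pdx, a source of NADPH, had 1.54 and 1.75 FPKM in the controls and 0.984 and 0.969 FPKM in LMKO (log2 fold change -0.42, limma adjusted p 0.296). Nr1h3, the oxysterol receptor LXR alpha that activates this program, lay the other way, with 67.9 and 63.6 FPKM in the controls and 97.8 and 103 FPKM in LMKO (log2 fold change 0.60, limma adjusted p 0.212). Scd1, the stearoyl-CoA desaturase, was low in LMKO replicate 2 alone, with 241 and 368 FPKM in the controls and 353 and 37.5 FPKM in LMKO. Without control replicate 1 the list's median was -0.15, and without control replicate 2 it was -0.67, with 7 members lower.

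Cholesterol synthesis and uptake genes had a median of -0.39 over 26 genes, with 2 lower at an unadjusted p under 0.05 and 0 higher. Sc5d, a late enzyme of the route, had 271 and 323 FPKM in the controls and 106 and 148 FPKM in LMKO (log2 fold change -1.23, limma adjusted p 0.297). Scap, the escort of the SREBP factors, had 29.1 and 29.1 FPKM in the controls and 20.5 and 18.2 FPKM in LMKO (log2 fold change -0.57, limma adjusted p 0.268). Sqle, the squalene epoxidase, had 64.5 and 56.6 FPKM in the controls and 20.3 and 60.3 FPKM in LMKO. Its LMKO replicate 1 was low and its LMKO replicate 2 near the controls, and the groups overlapped. Without LMKO replicate 1 the list's median was 0.05 and 1 gene was lower, and without LMKO replicate 2 it was -0.81 with 5 lower. The bile acid list had a median of -0.27 (-0.31 without LMKO replicate 2 and -0.17 without control replicate 1) over 21 genes, 0 higher and 3 lower. Slc10a1, the main importer of bile acids, had 528 and 517 FPKM in the controls and 329.7 and 352 FPKM in LMKO (log2 fold change -0.62, limma adjusted p 0.313). Abcg5 and Abcg8, the partners in the canalicular sterol exporter, had 32.6 and 35.7 against 24.9 and 20.8 FPKM and 15.6 and 18.6 against 12.6 and 10.2 FPKM. Cyp7a1, the rate-limiting enzyme of bile acid synthesis, ranged widely within both groups, with 155 and 31.03 FPKM in the controls and 16.96 and 70.9 FPKM in LMKO.

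Fatty acid oxidation and ketogenesis genes had modestly higher values: 25 of 28 were above 0, 16 without overlap, 4 were higher and 1 lower at an unadjusted p under 0.05, and the median was 0.26. Bdh1, of ketone body formation, had 87.9 and 79.9 FPKM in the controls and 116 and 139.9 FPKM in LMKO (log2 fold change 0.60, limma adjusted p 0.296). Slc25a20, the mitochondrial carnitine carrier, had 59.6 and 45.1 FPKM in the controls and 67.8 and 74.5 FPKM in LMKO (log2 fold change 0.45, limma adjusted p 0.381). Rxra, the nuclear receptor partner of PPAR alpha, lay the other way, with 89.1 and 66.5 FPKM in the controls and 56.3 and 54.7 FPKM in LMKO (log2 fold change -0.46, limma adjusted p 0.359), as did Ppara itself, with 42.2 and 24.2 FPKM in the controls and 17.8 and 26.5 FPKM in LMKO (log2 fold change -0.54, limma adjusted p 0.517). Of 12 lipid droplet genes, 2, G0s2 and Cideb, were higher at an unadjusted p under 0.05 and the median was 0.22 (0.092 without control replicate 2 and 0.34 without LMKO replicate 1). G0s2, an inhibitor of the lipase ATGL, had 146 and 144 FPKM in the controls and 239 and 241 FPKM in LMKO (log2 fold change 0.72, limma adjusted p 0.336). The droplet coat gene Plin2 had 114 and 117 FPKM in the controls and 208 and 197 FPKM in LMKO (log2 fold change 0.81, limma adjusted p 0.440; unadjusted p 0.0658). In both G0s2 and Plin2 the libraries of each group lay close together. Apolipoprotein genes had a median of 0.17 (0.080 without LMKO replicate 2 and 0.22 without LMKO replicate 1) over 16 genes, 1 higher and 0 lower. Over all alternative fits tried, this median ran from -0.03 to 0.22.

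Genes with a sex bias in liver depend, as the Mup genes do, on the pattern of growth hormone. The 16 male-biased genes tested beside Mup had a median of -0.24 (-0.70 without LMKO replicate 1 and -0.053 without LMKO replicate 2), 0 higher and 3 lower at an unadjusted p under 0.05. Beside Selenbp2, these were Cyp2u1, with 9.17 and 10.97 FPKM in the controls and 5.50 and 4.32 FPKM in LMKO (log2 fold change -0.91, limma adjusted p 0.161). Susd4, with 32.5 and 21.2 FPKM in the controls and 14.7 and 11.2 FPKM in LMKO (log2 fold change -0.98, limma adjusted p 0.273). Cyp4a12a, a hallmark male-biased cytochrome, had 157 and 121 FPKM in the controls and 167 and 241 FPKM in LMKO (log2 fold change 0.54, limma adjusted p 0.603). Cyp4a12b, of the same list, lay the other way, with log2 fold changes from -1.30 to -0.68 over all alternative fits tried. Of 9 female-biased genes tested, 3 were higher and 1 lower, with a median of -0.18 (-0.34 without LMKO replicate 1 and 0.95 without control replicate 2). Cyp17a1, a steroid hydroxylase, had 17.2 and 12.9 FPKM in the controls and 32.4 and 102 FPKM in LMKO (log2 fold change 1.88, limma adjusted p 0.336). A1bg had 0.243 and 0.263 FPKM in the controls and 1.36 and 16.6 FPKM in LMKO (log2 fold change 2.36, limma adjusted p 0.348), in both cases with LMKO replicate 2 far above LMKO replicate 1. Along the route from growth hormone to STAT5, 0 of 10 genes were higher and 0 lower. The growth hormone receptor Ghr had 237 and 236 FPKM in the controls and 173 and 167 FPKM in LMKO (log2 fold change -0.47, limma adjusted p 0.510). Stat5b had 6.59 and 7.72 FPKM in the controls and 7.09 and 5.97 FPKM in LMKO (log2 fold change -0.11, limma adjusted p 0.818). Igf1, the growth factor induced by this route, had 193 and 220.3 FPKM in the controls and 186 and 163 FPKM in LMKO (log2 fold change -0.24, limma adjusted p 0.658). Socs2, a feedback inhibitor, had 1.15 and 2.28 FPKM in the controls and 6.27 and 3.07 FPKM in LMKO (log2 fold change 1.04, limma adjusted p 0.693).

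Drug metabolism genes were spread to both sides, with 2 of 30 higher, 1 lower and a median of -0.15 (-0.18 without LMKO replicate 2 and -0.050 without control replicate 2). Cyp2e1, the ethanol-oxidizing cytochrome of the pericentral zone, had 2764 and 3008 FPKM in the controls and 4384 and 5336 FPKM in LMKO (log2 fold change 0.75, limma adjusted p 0.224). Gstm3, a glutathione transferase, had 98.5 and 90.8 FPKM in the controls and 50.8 and 60.4 FPKM in LMKO (log2 fold change -0.76, limma adjusted p 0.250). Glul, the glutamine synthetase of the innermost pericentral hepatocytes, had 311 and 297 FPKM in the controls and 151 and 211 FPKM in LMKO (log2 fold change -0.76, limma adjusted p 0.250), so that these 2 pericentral markers lay in opposite directions; the 10 pericentral markers had a median of -0.22 (-0.49 without LMKO replicate 2 and 0.13 without control replicate 1) and the 9 periportal ones -0.21 (-0.42 without LMKO replicate 1 and -0.11 without LMKO replicate 2). Among 21 acute phase genes, 1 was higher and 2 were lower, with a median of 0.19 (-0.034 without LMKO replicate 1 and 0.20 without LMKO replicate 2). Serpina3n, a protease inhibitor of this response, had 183 and 145 FPKM in the controls and 81.1 and 98.4 FPKM in LMKO (log2 fold change -0.86, limma adjusted p 0.245). Hamp2, a copy of the hepcidin gene, had 54.7 and 159 FPKM in the controls and 832 and 329.7 FPKM in LMKO (log2 fold change 2.47, limma adjusted p 0.336). Of 14 hepatokine genes, 1 was higher and 0 lower, with a median of 0.14 (0.061 without LMKO replicate 2 and 0.35 without LMKO replicate 1). Over all alternative fits tried, this median ran from 0.002 to 0.35. Inhbc, a subunit of activin C, had 41.1 and 35.9 FPKM in the controls and 60.5 and 54.9 FPKM in LMKO (log2 fold change 0.57, limma adjusted p 0.258). The 13 antioxidant and metal genes had 1 higher and 0 lower, with a median of 0.14 (-0.041 without LMKO replicate 2 and 0.28 without LMKO replicate 1), and the metallothionein gene Mt1 had 12.2 and 11.3 FPKM in the controls and 17.3 and 22.6 FPKM in LMKO (log2 fold change 0.71, limma adjusted p 0.344).

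Markers of Kupffer and stellate cells, and most of those of sinusoidal endothelial cells, had lower values in LMKO. Of 8 hepatocyte markers tested, 3 had higher and 5 lower values, with 3 higher and 1 lower at an unadjusted p under 0.05. The hepatocyte median was -0.06 (-0.18 without LMKO replicate 1 and 0.09 without LMKO replicate 2). All 11 Kupffer cell markers lay below 0, 5 without overlap and 5 at an unadjusted p under 0.05, with a median of -0.54 (-0.71 without LMKO replicate 2 and -0.33 without control replicate 2) (0.11 in the fasted comparison). Cd5l, secreted by macrophages, had 22.6 and 29.6 FPKM in the controls and 10.6 and 16.9 FPKM in LMKO (log2 fold change -0.90, limma adjusted p 0.320). Vsig4, a complement receptor of Kupffer cells, had 7.71 and 10.4 FPKM in the controls and 3.78 and 6.82 FPKM in LMKO (log2 fold change -0.71, limma adjusted p 0.390). Their summed FPKM was 110.2 and 149 FPKM in the controls and 67.5 and 102 FPKM in LMKO, lowest in LMKO replicate 1. The count of 5 was 0 without that library, 2 without control replicate 2 and 7 without control replicate 1. Of 12 sinusoidal endothelial markers, 10 had lower values and 4 were lower at an unadjusted p under 0.05 (0 to 7 with a re-fed library left out), with a median of -0.34 (-0.53 without LMKO replicate 1 and -0.14 without LMKO replicate 2), but their summed FPKM overlapped, at 83.6 and 91.8 FPKM in the controls and 95.2 and 70.6 FPKM in LMKO. Over all alternative fits tried, the median of the sinusoidal endothelial markers ran from -0.53 to -0.04. Kdr, a receptor for vascular endothelial growth factor, had 5.32 and 4.58 FPKM in the controls and 3.74 and 2.62 FPKM in LMKO (log2 fold change -0.52, limma adjusted p 0.359). All 10 stellate cell markers tested, Lrat among them, had lower values in LMKO, 6 without overlap. Their median was -0.51 (-0.56 without LMKO replicate 1 and -0.22 without control replicate 2) and their summed FPKM 65.3 and 95.6 FPKM in the controls and 49.6 and 61.1 FPKM in LMKO, with 2 lower at an unadjusted p under 0.05 (1 to 4 with a library left out). Of the markers tested for cholangiocytes, erythroid cells, neutrophils, adipocytes and pancreatic acinar cells, 4, 5, 2, 1 and 1 respectively, 1 cholangiocyte marker was lower and 1 neutrophil marker higher at an unadjusted p under 0.05. Both neutrophil markers had higher values without overlap, and 3 of the 5 erythroid loci had higher values with overlap.

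Interferon response genes lay on the same side as the Kupffer markers. Of 17 tested, 16 had lower values, 7 without overlap and 2 at an unadjusted p under 0.05, and the median was -0.48. Psmb8, a subunit of the immunoproteasome, had 21.7 and 30.4 FPKM in the controls and 13.5 and 18.6 FPKM in LMKO (log2 fold change -0.67, limma adjusted p 0.336). The list's median was -0.20 without LMKO replicate 1 and -0.77 without LMKO replicate 2, and the count of 2 was 0 without LMKO replicate 1 or control replicate 2, 3 without control replicate 1 and 6 without LMKO replicate 2. The part of the Kupffer markers in these values was not tested.

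Clock genes set LMKO replicate 1 apart from the other 3 libraries. Dbp, an output gene of the clock, had 48.8 and 38.9 FPKM in the controls and 6.60 and 53.2 FPKM in LMKO, and Arntl, which encodes the clock activator BMAL1 and peaks opposite to Dbp, had 0.493 and 2.13 FPKM in the controls and 6.32 and 0.799 FPKM in LMKO. Nfil3, a repressor of the same targets as Dbp, had 4.63 and 7.96 FPKM in the controls and 18.2 and 5.03 FPKM in LMKO. Bcl6, a transcriptional repressor, had 17.4 and 17.8 FPKM in the controls and 3.03 and 16.1 FPKM in LMKO. In each of these the outlying library was LMKO replicate 1. The groups overlapped in Dbp, Arntl and Nfil3, and in Bcl6 both LMKO libraries lay below both controls. Of 19 clock genes, 0 were higher and 1 lower at an unadjusted p under 0.05, with a median of -0.46 (-0.88 without control replicate 2 and -0.15 without control replicate 1). The median log2 difference of LMKO replicate 2 was -0.37 from control replicate 1 and 0.02 from control replicate 2. For LMKO replicate 1 these were -1.10 and -0.71. Bhlhe40 had 80.9 and 59.2 FPKM in the controls and 34.95 and 45.3 FPKM in LMKO (log2 fold change -0.78, limma adjusted p 0.268). The sources used here give no time of day for sampling, and its part in any value was not tested. Cell cycle genes had 0 higher and 3 lower of 18, with a median of -0.18 (-0.44 without control replicate 2 and -0.11 without control replicate 1), and Birc5, a regulator of mitosis, had 2.27 and 2.05 FPKM in the controls and 0.231 and 1.04 FPKM in LMKO (log2 fold change -0.99, limma adjusted p 0.274).

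Subunits of Mediator had values on both sides of 0, 20 higher and 12 lower. Of the 32 tested, Med23 included, 5 were higher and 1, Med23 itself, lower at an unadjusted p under 0.05, and the median was 0.05 (0.058 without control replicate 2 and 0.094 without LMKO replicate 1). Med29 had 7.06 and 7.11 FPKM in the controls and 8.91 and 9.92 FPKM in LMKO (log2 fold change 0.36, limma adjusted p 0.353). Med28 had 3.14 and 3.98 FPKM in the controls and 4.50 and 5.26 FPKM in LMKO (log2 fold change 0.37, limma adjusted p 0.390). Med24 and Med16, which neighbour Med23 in the tail, had 5.07 and 5.12 against 5.73 and 5.16 FPKM (log2 fold change 0.08, limma adjusted p 0.816) and 6.72 and 5.89 against 4.82 and 5.51 FPKM (log2 fold change -0.24, limma adjusted p 0.510). The count of higher subunits was 0 without control replicate 1 or LMKO replicate 2 and 7 without control replicate 2.

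The re-fed values were set beside the genotype difference after fasting, which used 4 other libraries. The difference between the genotype effects (the interaction) passed the adjusted threshold at 3 loci (0.0289%), all of them short microRNA loci at 0 in all but 2 libraries and not read as differences, so none of the differences below is shown to depend on feeding. The called Mup genes had lower LMKO values in both states: the log2 fold change of Mup17 was -7.44 re-fed and -7.90 fasted, and that of Mup16 was -5.67 and -6.11. Mup7 was less low after re-feeding, at -5.49 against -8.45 (interaction 2.97, unadjusted p 0.000201, limma adjusted p 0.260), and Mup20, at 0.37 re-fed, stood at -1.99 fasted (adjusted p 0.452). Cyp26a1 had 0.68 fasted against -1.96 re-fed (interaction adjusted p 0.469), and Car3 had 0.10 against -1.73 (adjusted p 0.507). For these 2 genes, outside the Mup family, the lower LMKO values were seen after re-feeding and the fasted log2 fold changes lay near or above 0. Fasted controls held much less of both than re-fed controls. Cyp26a1 had 4.17 and 1.12 FPKM in fasted controls, against 84.6 and 68.4 FPKM in re-fed controls. For Car3 these were 83.4 and 31.0 FPKM, against 3859 and 3426 FPKM. The fasted fold changes rest on these lower values. Lad1, Jun and Rcan1 had higher values re-fed and values below 0 fasted, at -0.83, -0.65 and -0.20, with adjusted p of 0.452, 0.469 and 0.469. Pck1 was lower in both states, at -0.79 re-fed and -1.38 fasted, and Selenbp2 likewise, at -2.46 and -4.43. The ribosomal protein median was 0.52 re-fed and 0.14 fasted, and that of heat shock genes 0.46 and -0.14, differences that were not tested as groups.

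**Figure D5:**
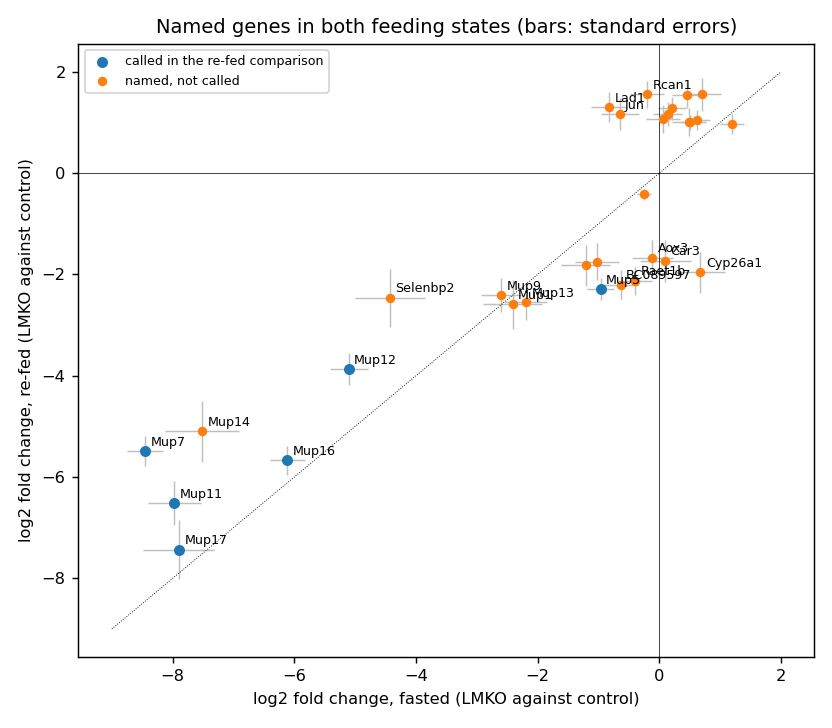
Each point is a called or named gene of at least 200 bases, 1 called gene left out, with its log2 fold change (LMKO against control) in the fasted comparison on the x axis and in the re-fed comparison on the y axis, standard errors as bars and equality as a dotted line. Mup7, Mup11, Mup14, Mup12 and Selenbp2, among others, lie above the line and Mup5, Cyp26a1 and Car3, among others, below it.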

How the data were processed

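Each library came as a table of 23699 loci, in FPKM as deposited. The submitters' processing notes name TopHat 1.4.1, Cufflinks and Cuffdiff 2.0.2 and the build mm9. Depth is unknown: FPKM is not a count, and no count model was fitted. Depth ratios between libraries of a group, read from recurring ratios of low values, were 0.925 and 1.041. Starts are printed 1 higher than deposited. Per the series text n is 2 mice per group.

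limma 3.58.1 in R 4.3.3 was fitted to log2(FPKM + 1) of all 8 libraries, with 4 group means, 4 residual and 2.87 prior degrees of freedom (eBayes with trend), two-sided, with Benjamini-Hochberg adjustment over 10374 loci. Fold changes on this scale understate the change of low genes. Named were Med23, all called loci, the 12 largest differences in each direction not called (p under 0.01, at least 5 FPKM, no overlap), up to 4 members of each list by p, the 3 loci nearest the threshold, and further list members chosen after their values were seen. Some genes that this rule names, 1 of them called, are not reported here. Members and lists were chosen with earlier results of these data known. Transcript lengths come from an annotation of another build. Same-numbered re-fed libraries did not deviate together, and the numbers were not taken as pairs. With 2 libraries per group this cannot exclude that they are pairs. Alternatives covered the pseudocount, the filter, scaling, eBayes settings, the libraries fitted, a replicate block, summed loci, short loci, length and each library left out.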

Additional observations from a re-analysis of the deposited data

Results flagged for a closer look

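The interaction test between feeding states passed the threshold at 3 microRNA loci, which reached the filter only through the re-fed group in which they were above 0. It is therefore not read as a difference between the states. On the log2(FPKM + 1) scale the interaction was 8.09 for Mir5123, -8.22 for Mir1898 and 4.33 for Mir215, with limma adjusted p of 8.93e-07, 8.93e-07 and 4.35e-05. Each was above 0 in 2 re-fed libraries of 1 genotype, at 277 and 266 FPKM in LMKO for Mir5123, 286 and 309 FPKM in the controls for Mir1898 and 19.6 and 18.8 FPKM in LMKO for Mir215, and listed at 0 in the other genotype. These sizes are no bound on a fold change. The loci span 83, 83 and 111 bases, and the FPKM of their 2 libraries stood in the ratio of the FPKM that 1 fragment gives in each library.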

How the results depend on the processing

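The 11 calls (3 higher, 8 lower) were 19 with only the 4 re-fed libraries fitted (6 higher, 13 lower), and 9 of the 11 remained. Without loci under 200 bases there were 7, all lower, so 0 higher. With no filter on low values 5 were higher. With short loci left out and the length trend removed, an alternative chosen after seeing the data, 0 were higher and 9 lower. Leaving out each of the 8 libraries in turn gave 4 to 17 calls, 0 to 5 higher and 3 to 14 lower; without re-fed LMKO replicate 2 there were 4, without re-fed control replicate 2 there were 6, and without either fasted control 17. A fit with the replicate number as a block called 11 loci, 9 of them shared, and lost 2, Mup5 among them; same-numbered re-fed libraries correlated in their deviations at -0.0234, so that the numbers were not taken as pairs. Some values changed sign: with single libraries left out, the interaction of Mup17 ranged from -0.53 (without fasted LMKO replicate 1) to 1.46, that of Snora2b from -0.50 to 0.49 (without fasted LMKO replicate 1), the log2 fold change of Foxo1 from -0.61 to 0.0289 (without re-fed control replicate 1) and that of Rhbg from -1.03 to 0.0541 (without re-fed LMKO replicate 1); the cause was not tested. The median over all loci stayed between -0.01 and 0.06. With 2 mice per group and unknown depth, differences that missed the threshold are not shown to be absent.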
